A study of Mus musculus with 6 samples.

Results

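The auxiliary subunits of voltage-gated calcium channels and the transmembrane AMPA receptor regulatory proteins (TARPs), which belong to the γ subunit family, were followed in hippocampal RNA from wild-type and Tg(ORAI1)Ibd mice. The members were taken by gene symbol and comprised 10 of the 54838 genes counted: the β subunit genes Cacnb1, Cacnb2, Cacnb3 and Cacnb4, the α2δ subunit genes Cacna2d1, Cacna2d2 and Cacna2d3, and the TARP genes Cacng2, Cacng3 and Cacng8. PolyA RNA of 6 hippocampi, 1 per mouse, had been sequenced from females at 7 months of age. They were 3 wild-type mice and 3 mice of genotype FVB/NJ-Tg(Orai1)Ibd. The transgene is a human ORAI1 coding sequence in the mouse Thy1.2 cassette, which drives expression in neurons, and it encodes the pore of the store-operated calcium channel. Transgenic mice of a single line were used, so an effect of ORAI1 and one of the insertion site cannot be told apart.

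High-voltage-activated calcium channels are assembled from a pore-forming α1 subunit and auxiliary subunits. The cytosolic β subunit binds the pore subunit, helps to bring it to the membrane and tunes its gating, and the extracellular α2δ subunit is anchored at the membrane surface and raises the number of channels there and at the presynaptic terminal. The proteins encoded by Cacna2d1 and Cacna2d2 are the binding sites of the antiepileptic drugs gabapentin and pregabalin. TARPs bind AMPA-type glutamate receptors, carry them to the surface and tie them to PSD-95 at the synapse. Loss of Cacnb4 in the lethargic mouse, of Cacna2d2 in the ducky mouse and of Cacng2 in the stargazer mouse leads to ataxia and spike-wave seizures, and the transgenic line was studied for seizure-like events at older age.

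The counts on genes added up to between 37414241 and 52497799 per library, and 19087 genes passed a filter on low counts. All 10 members passed it, and the smallest count of any member in any library was 1168. The level of Orai1 separated the genotypes as labelled, with 7.16 to 8.08 CPM (counts relative to the scaled library total) in the wild-type and 313 to 331 CPM in the transgenic libraries, as did Thy1, whose cassette the transgene uses, with 621 to 675 CPM and 3572 to 4369 CPM. All 6 marker genes of the choroid plexus were lower in the transgenic libraries, at a median log2 fold change of -2.68, and their summed levels were 1767 to 3338 FPKM against 158 to 335 FPKM. A fold change below is always Tg(ORAI1)Ibd over wild-type, on the log2 scale unless a percent is given, with its standard error (SE). Its p comes from the quasi-likelihood test of edgeR on 3 against 3 mice and was adjusted over all genes tested.

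The coding sequences of members of a family are alike, so the counts of one could in principle hold reads of another. Coding sequences of 2 members of a family were identical at 59.3% to 73.5% of aligned bases, but the longest stretch shared without a mismatch was between 14 and 24 bases for any pair, and the reads mapped were 65 to 76 bases long. The most similar stretch of 76 bases in Cacnb3 and Cacnb4, out of 719 compared, is shown because these β genes are the ones that changed in opposite directions. It lies at coding positions 559 to 634 of Cacnb3 (GRCm38, chr15:98641243-98641617, plus strand, exons 7 to 9 of 13) and 682 to 757 of Cacnb4 (chr2:52455708-52465612, minus strand, exons 8 to 10 of 14), with introns left out. Capitals mark the 10 positions at which they differ.
Cacnb3: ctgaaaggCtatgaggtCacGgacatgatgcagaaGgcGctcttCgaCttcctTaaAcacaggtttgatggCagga
Cacnb4: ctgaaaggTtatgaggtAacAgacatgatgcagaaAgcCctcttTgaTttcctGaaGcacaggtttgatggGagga
At these positions 8 of the bases were G or C in Cacnb3 and 4 in Cacnb4. Over the whole transcript, 59.4% of the bases were G or C in Cacnb3 and 39.7% in Cacnb4, whose 3′ untranslated region of 6164 bases held 35.8%.

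For the TARPs, the coding ends are shown because the last residues form the tail that binds the PDZ domains of PSD-95. The final 39 coding bases are given with the 4 codons before the stop in capitals, from the last exon of each gene (GRCm38, Cacng2 at chr15:77995149-77995187 on the minus strand, Cacng3 at chr7:122768808-122768846 and Cacng8 at chr7:3415567-3415605 on the plus strand).
Cacng2: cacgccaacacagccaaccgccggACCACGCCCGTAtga
Cacng3: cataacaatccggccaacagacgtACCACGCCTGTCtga
Cacng8: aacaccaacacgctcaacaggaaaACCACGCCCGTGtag
Sequences are those of the GENCODE M21 transcripts. The first 8 of the 12 bases in capitals were the same in all 3 genes.

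Levels of different members were compared per transcript length, as FPKM computed from the deposited exonic lengths. In wild-type hippocampus Cacng8, the TARP most characteristic of this tissue, had the highest level at 50.1 ± 6.37 FPKM (SD, n = 3), followed by the β gene Cacnb3 at 43.7 ± 0.853 FPKM. The ranges of these 2 genes over the mice overlapped. Cacnb1 followed at 25.1 ± 1.19 FPKM and was separated from its neighbours on both sides. The next 3 genes, Cacna2d1 at 18.4 ± 0.854, Cacnb4 at 16.8 ± 1.71 and Cacng3 at 14.9 ± 1.17 FPKM, formed a chain in which Cacna2d1 overlapped Cacnb4 and Cacnb4 overlapped Cacng3. Cacna2d3 at 12.5 ± 0.121 and Cacng2 at 9.78 ± 0.570 FPKM stood apart from their neighbours. Cacnb2 at 5.90 ± 0.478 and Cacna2d2 at 5.89 ± 0.879 FPKM came last and did not differ beyond their spread. By this measure 4.25% of the genes tested had a higher wild-type level than Cacng8 and 39.5% a higher one than Cacna2d2. Without division by length only 2 of the 10 members kept their rank, and Cacna2d1, whose exons span 12416 bp, then came first at 228 CPM.

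**Figure D1:**
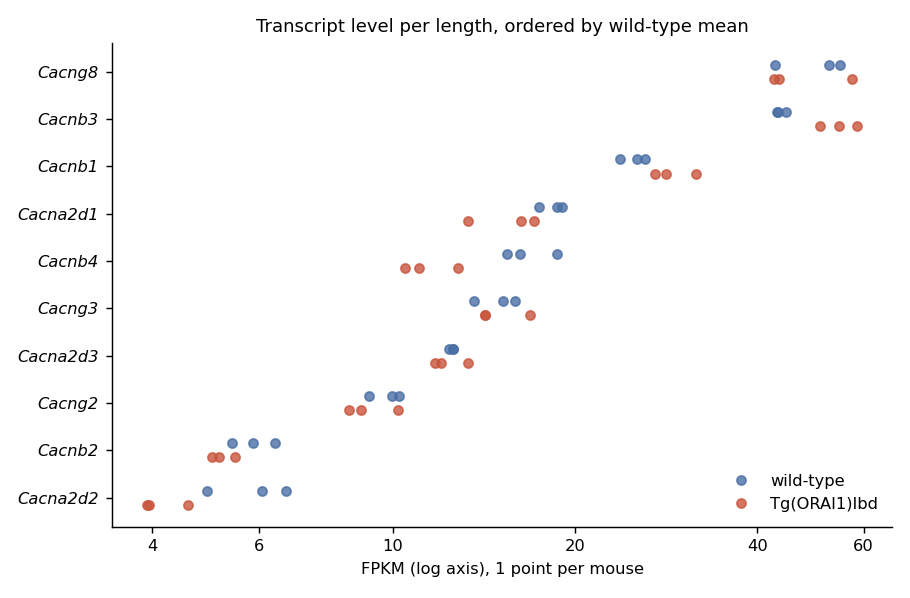
FPKM of each member on a log axis, with 1 point per mouse in blue for wild-type and red for Tg(ORAI1)Ibd, ordered from the top by the wild-type mean. Cacng8 and Cacnb3 lie highest, between 42.6 and 58.5 FPKM in all 6 mice, and the red points of Cacnb4 lie clear of the blue ones, at 10.5 to 12.8 against 15.4 to 18.7 FPKM.

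The first question was whether the levels of the members differed between genotypes. Cacnb3 was higher and Cacnb4 and Cacna2d2 were lower in the transgenic hippocampi, while the other 7 members did not pass the test. Thus 1 of 10 members was called higher, against 3.1% of all genes tested, and 2 were called lower, against 4.0%. Called in either direction were 3 of 10 members and 7.1% of all genes tested. The groups of 3 did not overlap for 5 of the 10 members, against 34.9% of all genes. Of these 5, Cacnb1 and Cacnb3 were higher, against 16.9% of all genes, and Cacnb4, Cacna2d1 and Cacna2d2 lower, against 17.9%. An unadjusted p under 0.05 was found for 6 of the 10 members and for 27.8% of all genes tested, and the median log2 fold change was -0.08 over the members and -0.01 over all genes tested. In bulk tissue fewer cells of a type and less RNA per cell cannot be told apart.

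**Figure D2:**
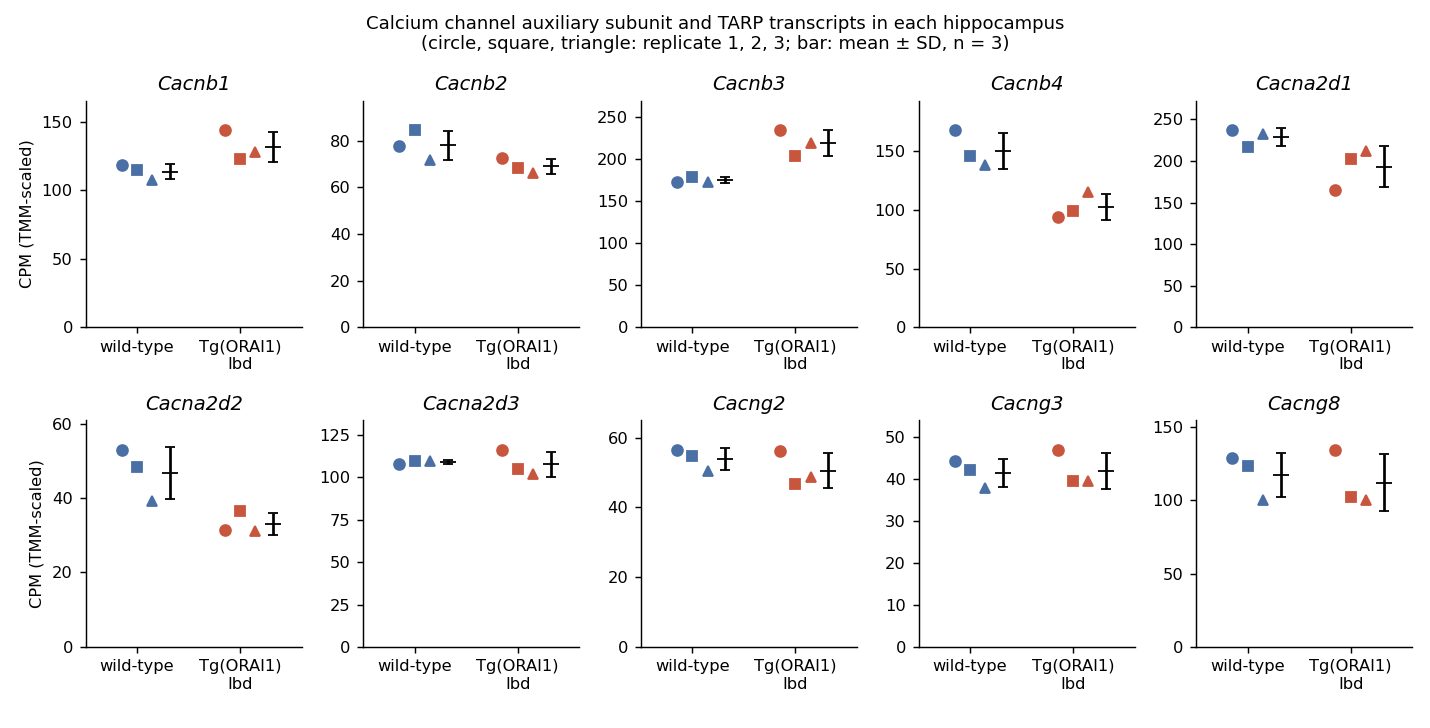
CPM (TMM-scaled) of each member in each mouse, on axes that start at 0, with the mean ± SD (n = 3) of each genotype beside the points. The groups are separate for Cacnb1, Cacnb3, Cacnb4, Cacna2d1 and Cacna2d2. The 3 TARP members show the same split of the mice, with the first wild-type, second wild-type and first transgenic mouse above the other 3.

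Among the β subunits, Cacnb3 (ENSMUSG00000003352, chr15:98630840-98644529, plus strand) encodes a β subunit found with N-type and L-type channels in forebrain neurons. Its level was 173, 179 and 173 CPM in the wild-type mice and 234, 203 and 219 CPM in the transgenic mice. Every transgenic value was above every wild-type value, and the wild-type mice differed little from each other. The log2 fold change was 0.32 (SE 0.058, adjusted p = 0.028, edgeR), an increase by 25.0%, with a 95% interval of 0.19 to 0.46. Cacnb3 is also among the genes that the study listed in an enriched group drawn from these same libraries, so its direction here is not independent evidence.

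Cacnb4 (ENSMUSG00000017412, chr2:52428320-52676831, minus strand), the gene mutated in the lethargic mouse, showed the largest fold change of the 10 members with TMM scaling. It was measured at 168, 145 and 138 CPM in wild-type and at 94.0, 98.9 and 115 CPM in transgenic hippocampi. The groups did not overlap, and the lowest wild-type mouse was above the highest transgenic one. Cacnb4 fell by 0.55 on the log2 scale (SE 0.096, adjusted p = 0.026, edgeR), with a 95% interval from -0.78 to -0.33 and a percent change of -31.8%. A non-coding gene on the opposite strand shares 1433 bp of exon with it, but had a count of at most 54 per library in a stranded counting.

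Cacnb1 (ENSMUSG00000020882, chr11:98001508-98023034, minus strand) encodes the β subunit of the skeletal muscle channel, with isoforms in brain. The wild-type mice had 118, 115 and 108 CPM and the transgenic mice 144, 123 and 128 CPM. The groups did not overlap, but the difference missed the threshold at a log2 fold change of 0.21 (SE 0.068, adjusted p = 0.096, edgeR) with a 95% interval of 0.05 to 0.37, and it was 0.10 with GC offsets. Cacnb2 (ENSMUSG00000057914, chr2:14603088-14987908, plus strand), the main β subunit of the heart, had 77.8, 84.5 and 71.8 CPM in wild-type and 72.5, 68.1 and 66.4 CPM in transgenic mice. These groups overlapped, since the first transgenic mouse was above the third wild-type mouse. Its log2 fold change was -0.18 (SE 0.068, adjusted p = 0.14, edgeR), with a 95% interval of -0.34 to -0.02, and it was -0.07 with GC offsets, -0.04 with gene length offsets, and -0.10 without the second wild-type mouse.

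Among the α2δ subunits, Cacna2d2 (ENSMUSG00000010066, chr9:107399612-107529343, plus strand), the gene mutated in the ducky mouse, was the one that passed the test. It was measured at 52.9, 48.4 and 39.2 CPM in wild-type and at 31.5, 36.5 and 31.2 CPM in transgenic mice. The wild-type mice were spread widely, and the third of them lay close to the second transgenic mouse. Cacna2d2 fell by 0.50 on the log2 scale (SE 0.12, adjusted p = 0.045, edgeR), with a 95% interval of -0.77 to -0.24 and a percent change of -29.5%. Of the 5 interneuron markers given further on, Gad2, a gene for a GABA-synthesising enzyme, was lower, and 4 were not called.

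Cacna2d1 (ENSMUSG00000040118, chr5:15934691-16374511, plus strand), the most abundant α2δ gene here and a receptor for thrombospondins, had 237, 216 and 232 CPM in wild-type and 165, 202 and 212 CPM in transgenic mice. The groups did not overlap, although the second wild-type and the third transgenic mouse were close, and the first transgenic mouse was far below the rest. The log2 fold change of -0.24 (SE 0.092, adjusted p = 0.14, edgeR) missed the threshold, with a 95% interval of -0.46 to -0.03. It was -0.09 with GC offsets, -0.11 with gene length offsets and -0.14 without the first transgenic mouse. Cacna2d3 (ENSMUSG00000021991, chr14:28904943-29721864, minus strand), which encodes a neuronal α2δ subunit, had 108, 110 and 109 CPM in wild-type and 116, 105 and 102 CPM in transgenic mice. The transgenic mice lay on both sides of the wild-type values. Its log2 fold change was -0.02 (SE 0.056, adjusted p = 0.88, edgeR) with a 95% interval of -0.15 to 0.11.

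None of the 3 TARP members passed the test, in edgeR (0 at an unadjusted p under 0.05), DESeq2 or limma-voom, and in each the genotypes overlapped. Cacng8 (ENSMUSG00000053395, chr7:3390683-3415648, plus strand), whose product γ-8 is the main TARP of hippocampal pyramidal neurons, had 129, 123 and 100 CPM in wild-type and 134, 102 and 99.9 CPM in transgenic mice. It varied more within each genotype than between them, with a log2 fold change of -0.07 (SE 0.13, adjusted p = 0.79, edgeR) and a 95% interval of -0.38 to 0.24. Cacng2 (ENSMUSG00000019146, chr15:77991748-78120028, minus strand), the stargazin gene, had 56.5, 54.8 and 50.4 CPM in wild-type and 56.2, 46.7 and 48.7 CPM in transgenic mice. The log2 fold change of Cacng2 was -0.09 (SE 0.080, adjusted p = 0.50, edgeR), with a 95% interval of -0.28 to 0.09, and it was -0.18 without the first and -0.01 without the second transgenic mouse. Cacng3 (ENSMUSG00000066189, chr7:122670492-122769393, plus strand), which encodes the closely related γ-3, had 44.1, 42.2 and 37.8 CPM in wild-type and 46.9, 39.4 and 39.5 CPM in transgenic mice. For Cacng3 the log2 fold change was 0.02 (SE 0.088, adjusted p = 0.92, edgeR), with a 95% interval of -0.19 to 0.22.

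The mice split the same way in all 3 TARP members, across the genotypes. The first and second wild-type and the first transgenic mouse were highest. The third wild-type and the second and the third transgenic mouse were lowest. Deviations of the mice from the mean of their genotype followed the same split across 11191 genes. The first transgenic mouse correlated with the first and second wild-type mouse at r = 0.40 each and with the third at r = -0.59, and the third wild-type mouse correlated with the second and the third transgenic mouse at r = 0.54 and r = 0.39. Genes are not independent replicates, and what these mice share is not given by the labels. Glial markers followed the split in the opposite direction: 5 of 5 astrocyte and 5 of 5 microglia markers were higher in each of the third wild-type and the second and the third transgenic mouse than in any of the other mice, as were 2 of 5 oligodendrocyte markers. Gfap, the astrocyte filament gene, had 323, 355 and 836 CPM in the wild-type and 386, 922 and 840 CPM in the transgenic mice. The summed microglia markers were at 69.1, 75.0 and 102 FPKM in the wild-type and at 69.7, 114 and 108 FPKM in the transgenic mice. Lower in the mice with lower TARP levels were 3 of 5 interneuron markers and 2 of 5 markers shared by neurons. No average or test was made by this split. The part of glial RNA in the split of the TARPs was not tested.

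With GC offsets in place of TMM scaling alone, none of the 3 calls held. Across the 11188 of 19087 tested genes with a mean log2 CPM above 3, the fold change followed the GC content of the transcript, with a median of -0.18 in the tenth of these genes poorest in GC (median GC content 40.8%) and 0.16 in the richest (59.6%). Cacnb4 has the lowest GC content of the members at 39.7%, and Cacnb1 and Cacnb3 have 59.4% each, while Cacng8 is the richest at 64.1% and was not called. When the GC trend of each library was removed, Cacnb4 had a log2 fold change of -0.35 (SE 0.077, adjusted p = 0.065, edgeR) and Cacnb3 of 0.21 (SE 0.054, adjusted p = 0.088, edgeR). Cacna2d2, with 55.4% GC, moved away from 0 to -0.57 (SE 0.12, adjusted p = 0.057, edgeR), and it was called with GC offsets and a replicate block together (-0.56, adjusted p = 0.030, edgeR). With GC offsets alone no member was called (3 at an unadjusted p under 0.05), against 2.13% of all genes tested, and these 3 genes kept their direction. Cacng8 had the largest shift among the members that were not called, from -0.07 to -0.24 (adjusted p = 0.29, edgeR).

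Leaving out single mice also ended calls. Cacnb4 was called in 3 of the 6 fits with 1 mouse left out, not without the first or second wild-type or the second transgenic mouse, and its log2 fold change ranged from -0.62 to -0.45. Cacnb3 was called in 2 of 6, without the first or the second transgenic mouse, with a range of 0.27 to 0.40. Cacna2d2 was called in 1 of 6, without the third wild-type mouse, with a range of -0.61 to -0.39. With gene length trends removed, Cacna2d2 was no longer called (log2 fold change -0.42, adjusted p = 0.069, edgeR).

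**Figure D3:**
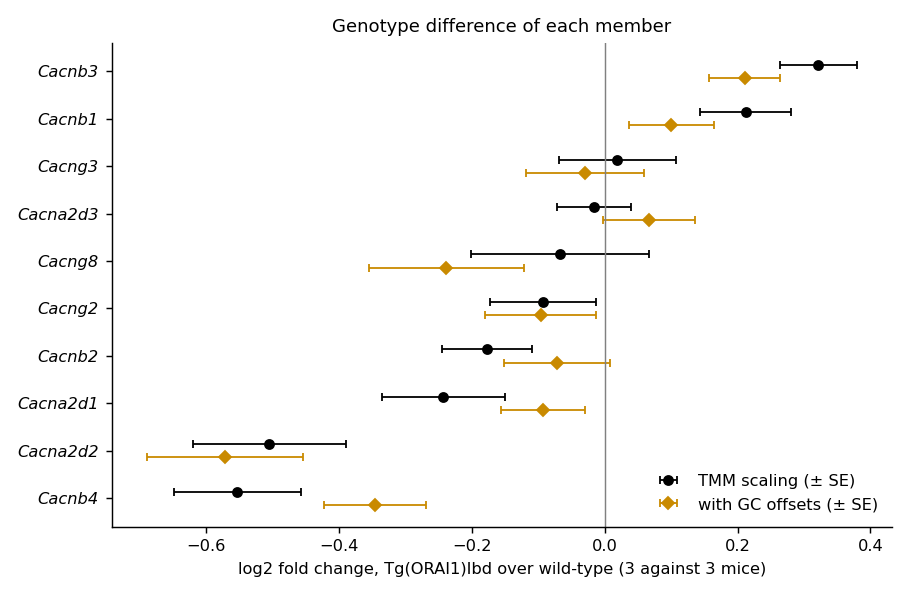
Log2 fold change of each member (± SE, 3 against 3 mice), in black with TMM scaling and in ochre after removal of the GC trend within every library. Cacnb3 at 0.32 and Cacnb4 at -0.55 form the ends of the black series, and with GC offsets they move towards 0, to 0.21 and -0.35.

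The second question was whether the make-up of each family differed. It was taken as the share of each member in the summed FPKM of the members of its family. This share does not depend on library scaling but was not corrected for GC content. In the β family Cacnb3 had the largest share in every mouse. Its share was 46.0%, 48.2% and 49.2% in wild-type and 55.1%, 53.9% and 54.2% in transgenic mice. Cacnb4 held 19.9%, 17.5% and 17.6% in wild-type and 9.88%, 11.7% and 12.7% in transgenic mice. The shares of both genes were thus separated between genotypes, with mean differences of 6.60 and -6.89 percentage points. The shares of Cacnb1, 27.4 ± 0.385% and 28.9 ± 0.927% (SD, n = 3), and of Cacnb2, 6.45 ± 0.389% and 5.21 ± 0.250%, did not overlap either. For each of the 4 β genes an exact two-sided permutation test gave p = 0.1, the smallest that 3 against 3 mice allow, so no share could pass the threshold (adjusted p = 0.2 over 10 members).

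Cacnb3 was thereby 2.61 times as abundant as Cacnb4 per length in wild-type and 4.78 times in transgenic hippocampus. The log2 ratio of the 2 genes was 1.21, 1.46 and 1.49 in the wild-type and 2.48, 2.20 and 2.09 in the transgenic mice. These groups did not overlap (exact permutation p = 0.1, adjusted p = 0.2 over 4 ratios), for a pair chosen because its genes were called in opposite directions. The difference between the log2 fold changes of the 2 genes was 0.87 with TMM scaling and 0.56 with GC offsets. The other 3 log2 ratios compared, Cacnb3 to Cacnb1, Cacna2d1 to Cacna2d2 and Cacng8 to Cacng2, differed between genotypes by 0.11, 0.25 and 0.02 (exact permutation p = 0.1, 0.3 and 0.9). The summed level of the 4 β genes was 91.4 ± 3.17 FPKM in wild-type and 100.3 ± 6.07 FPKM in transgenic mice (SD, n = 3), and the lowest transgenic value of 94.1 was barely above the highest wild-type value of 93.9.

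In the α2δ family Cacna2d1 held 50.0 ± 1.69% of the summed FPKM in wild-type and 48.4 ± 4.47% in transgenic mice (SD, n = 3). Its share in the first transgenic mouse was 43.5%, below all others. The share of Cacna2d3 was 34.0 ± 1.35% and 38.7 ± 4.30%, without overlap (exact permutation p = 0.1). The difference was 4.64 percentage points, and 2.17 without the first transgenic mouse. Shares within a family depend on each other, and the level of Cacna2d3 itself had a log2 fold change of -0.02 (adjusted p = 0.88, edgeR). The share of Cacna2d2 was 16.0 ± 2.06% and 13.0 ± 0.986%, with overlap (exact permutation p = 0.2). The family sum was 36.8 ± 1.13 FPKM in wild-type and 32.1 ± 1.28 FPKM in transgenic mice, without overlap (exact permutation p = 0.1). The TARP sum held only the members Cacng2, Cacng3 and Cacng8. It left out other TARP genes such as Cacng7, which had 41.1 FPKM in wild-type mice. Of this sum Cacng8 held 66.9 ± 1.37% and 66.2 ± 1.56%, and Cacng2 13.1 ± 0.703% and 12.8 ± 0.689%. The mean share of Cacng3 differed by 1.06 percentage points. All 3 shares overlapped between genotypes. The TARP sum was 74.8 ± 8.09 FPKM in wild-type and 72.1 ± 10.7 FPKM in transgenic mice.

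**Figure D4:**
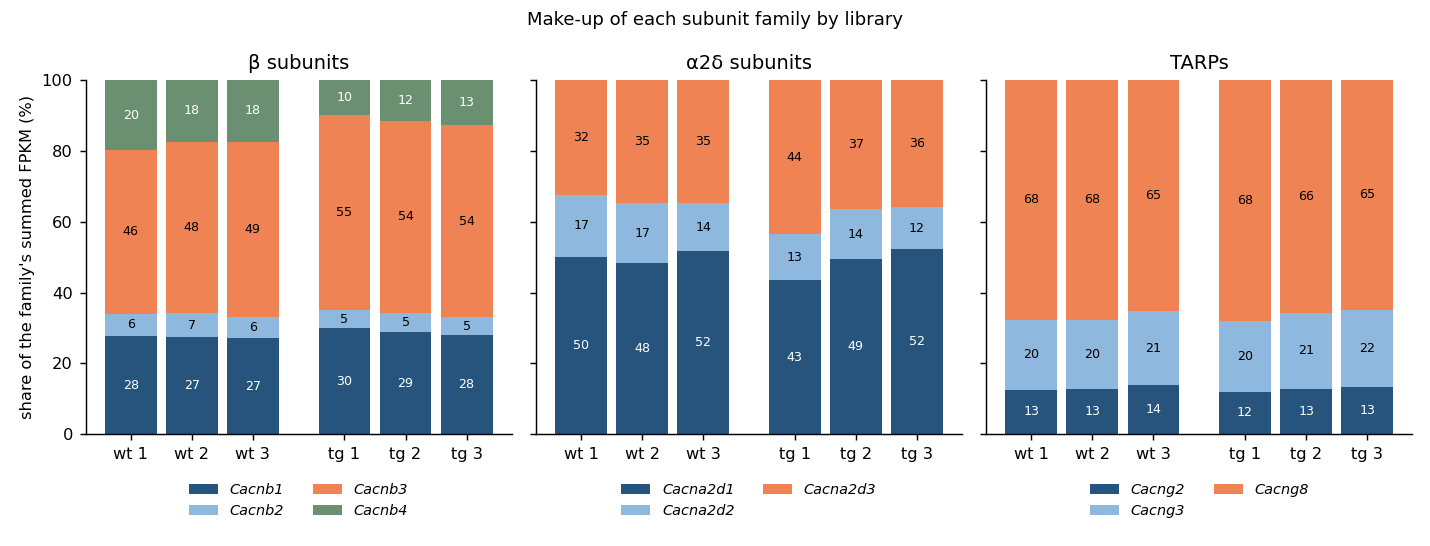
Share of each member in the summed FPKM of the members of its family, in percent, as 1 stacked bar per mouse (wt: wild-type, tg: Tg(ORAI1)Ibd). The green segment of Cacnb4 shrinks from 17.5% to 19.9% in the wild-type bars to 9.88% to 12.7% in the transgenic bars while that of Cacnb3 widens, and the TARP bars look alike in all 6 mice.

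The third question was whether genes that work with the members differed as well. Lists of 43 partner genes were examined, of which 41 were tested. By edgeR's quasi-likelihood test 2 of them were called lower, against 4.0% of all genes tested, and 0 were called higher. An unadjusted p under 0.05 was found for 4 higher and 7 lower, 11 of 41 in all, against 27.8% of all genes tested. DESeq2's Wald test called 4 higher and 4 lower, against 6.54% and 7.29% of the 16122 genes to which it gave an adjusted p. With limma-voom 0 were called higher and 2 lower, against 2.88% and 3.73% of all genes tested.

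The pore subunits, to which the β and α2δ proteins bind, did not pass the test in any of 9 genes, with 1 at an unadjusted p under 0.05 and none called by DESeq2 or limma-voom. Their median log2 fold change was 0.04 with TMM scaling, -0.01 with GC offsets (6 of 9 below 0) and 0.16 with gene length offsets (9 of 9 above 0), so they had no stable direction. The largest in size with TMM scaling was -0.18, in Cacna1e, the R-type channel gene. Cacna1e also had the highest wild-type level of the list per length, at 20.8 ± 1.77 FPKM against 18.5 ± 0.573 FPKM in transgenic mice (SD, n = 3, adjusted p = 0.15, edgeR). Another 5 auxiliary subunit genes, Cacna2d4 and further γ genes, were not called either (0 at an unadjusted p under 0.05, and 0 by DESeq2 or limma-voom). The most abundant of them was Cacng7, a further TARP gene that was not among the members, at 41.1 ± 1.68 and 42.5 ± 1.55 FPKM.

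AMPA receptor subunits are the partners of the TARPs. Gria2, whose product makes the receptor impermeable to calcium, was the 1 of 4 genes called lower by edgeR, where 3 had an unadjusted p under 0.05. Its level was 1077, 976 and 893 CPM in wild-type and 710, 724 and 733 CPM in transgenic mice. The groups were well separated, and the transgenic mice were close to each other. The log2 fold change of Gria2 was -0.44 (SE 0.073, adjusted p = 0.024, edgeR). Gria3 and Gria4 had log2 fold changes of -0.18 and -0.21 without overlap of the groups and missed the threshold (adjusted p = 0.057 and 0.051, edgeR), and with GC offsets they were at -0.03 and -0.08 (adjusted p = 0.79 and 0.40, edgeR). DESeq2 called 3 of the 4 lower and limma-voom 1, against 7.29% and 3.73% of the genes to which each gave an adjusted p. Over all genes tested, 27.8% had an unadjusted p under 0.05 in edgeR. All 4 subunit genes had values below 0, with a median of -0.20. The median was -0.06 with GC offsets and -0.12 with gene length offsets, with 1 of the 4 above 0 in each. Also without the second wild-type, the second transgenic or the third transgenic mouse, 1 of the 4 was above 0. Gria2 has a GC content of 41.3%, and with GC offsets its log2 fold change was -0.26 (adjusted p = 0.11, edgeR) and with gene length offsets -0.29 (adjusted p = 0.0504, edgeR), while of the 6 fits with 1 mouse left out it was called in 2, without the third wild-type or the first transgenic mouse, at -0.50 to -0.36 over the 6. Gria1, the most abundant subunit gene, had 161 ± 9.22 FPKM in wild-type and 157 ± 14.2 FPKM in transgenic mice (SD, n = 3) and was not called.

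The 8 other auxiliary proteins of AMPA receptors all had log2 fold changes above 0 with TMM scaling, with a median of 0.19. With GC offsets 6 of 8 were above 0, with a median of 0.09. Without the first transgenic or without the third wild-type mouse 6 of 8 were above 0. None was called by limma-voom or by edgeR in the main fit, where 3 had an unadjusted p under 0.05, and DESeq2 called 3. Without a filter edgeR called 2 higher, and without the first transgenic mouse it called 1 higher. Cnih2, the cornichon gene that acts beside γ-8 in hippocampal receptors, was the most abundant at 216 ± 7.82 FPKM in wild-type and 256 ± 18.6 FPKM in transgenic mice (SD, n = 3). Its log2 fold change was 0.24 (SE 0.062, adjusted p = 0.057, edgeR), and 0.10 with GC offsets (adjusted p = 0.32, edgeR). The PSD-95 family scaffolds, which anchor the TARP tail printed above, were called in 0 of 4 genes (2 at an unadjusted p under 0.05, and 0 by DESeq2 or limma-voom), with Dlg4, encoding PSD-95, at 53.5 ± 1.51 and 57.1 ± 5.03 FPKM.

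Among 7 channel regulators of the RGK and STAC families, which bind β or pore subunits, 0 were called by edgeR or limma-voom, 1 had an unadjusted p under 0.05 and 1 was called by DESeq2. The most abundant was Stac2, at 22.8 ± 1.54 FPKM in wild-type and 24.4 ± 4.41 FPKM in transgenic mice (SD, n = 3). Of the 4 thrombospondin genes, whose secreted products are ligands of the Cacna2d1 protein, Thbs1 fell. Thbs1 was measured at 9.46, 6.23 and 8.22 CPM in wild-type and at 4.74, 4.61 and 4.83 CPM in transgenic mice. The groups did not overlap, at a low level of expression. The log2 fold change of Thbs1 was -0.75 (SE 0.16, adjusted p = 0.037, edgeR), and it was -0.73 with GC offsets, hardly moved, although no longer called (adjusted p = 0.061, edgeR). Of the 6 fits with 1 mouse left out Thbs1 was called in 1, without the second wild-type mouse, at -0.89 to -0.60 over the 6. Thbs3, the most abundant of the list, had 7.36 ± 0.761 and 8.44 ± 1.48 FPKM and was not called.

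**Figure D5:**
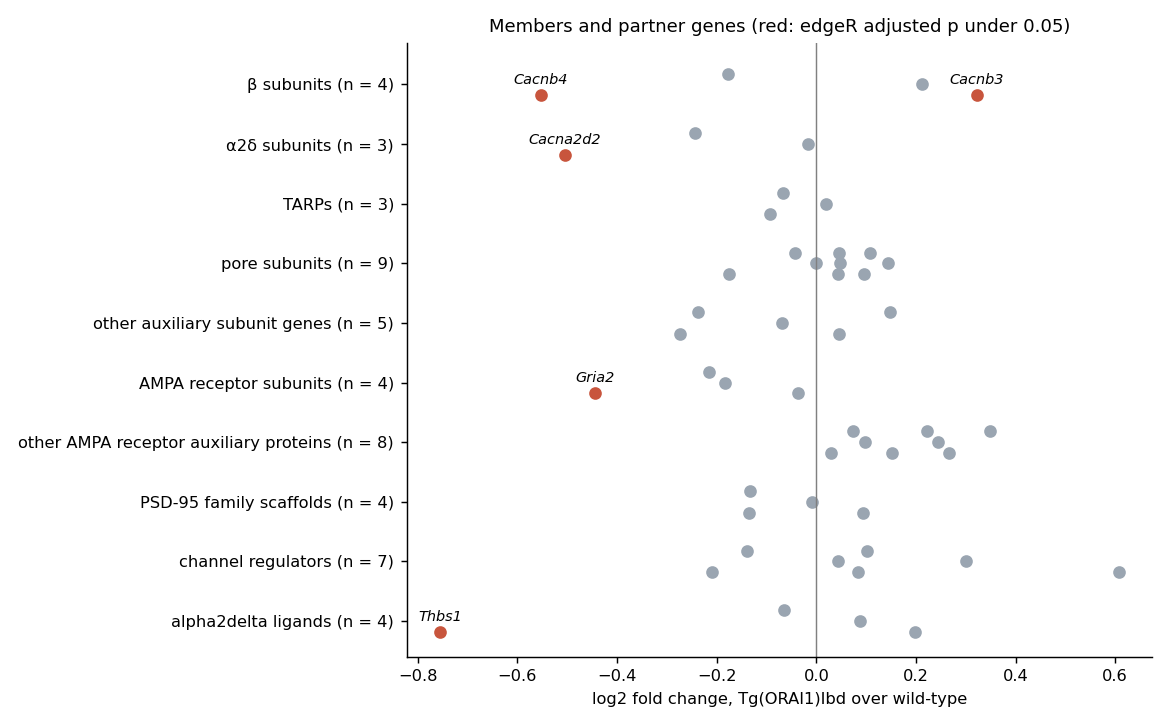
Log2 fold change of every tested member and partner gene, 1 row per family or list, with genes at an adjusted p under 0.05 (edgeR) in red and named. Red points are Cacnb3 on the right and Cacnb4, Cacna2d2, Gria2 and Thbs1 on the left, and no pore subunit is red.

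Markers of the cell types in the samples were read beside these values. The choroid plexus genes given above were lower in 6 of 6, in the same direction as Cacnb4 and Cacna2d2. Of the 5 interneuron markers 1 was called lower, Gad2, at 196, 182 and 155 CPM in wild-type and 131, 127 and 115 CPM in transgenic mice, and the summed level of the list was 241 to 301 FPKM and 204 to 323 FPKM. The log2 fold change of Gad2 was -0.52 (SE 0.092, adjusted p = 0.027, edgeR), whereas Gad1 and Slc32a1 had -0.28 and -0.27, Sst -0.10 and Pvalb 0.09, and these 4 were not called. With GC offsets Gad2 was at -0.40 and no longer called (adjusted p = 0.084, edgeR). The part of choroid plexus and interneuron RNA in the differences of Cacnb4, Cacna2d2 and Thbs1 was not tested.

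The 5 markers shared by neurons were called in no direction (median log2 fold change -0.02), at summed levels of 724 to 755 and 727 to 744 FPKM. Of 5 markers of pyramidal and granule neurons, Slc17a7 was called higher at 0.26 (adjusted p = 0.036, edgeR), the same direction as Cacnb3, whereas Grik4 had 0.21, Wfs1 0.08, Prox1 0.02 and Neurod6 -0.14 and were not called. With GC offsets Slc17a7 was at 0.18 (adjusted p = 0.11, edgeR). The sums of this list were 359 to 371 and 394 to 418 FPKM, in which Slc17a7 alone averaged 219 and 261 FPKM. Of 4 endothelial markers Cldn5 was called higher at 0.66 and Slco1c1 lower at -0.30. With GC offsets they were at 0.54 and -0.16, and neither was called (adjusted p = 0.11 and 0.23, edgeR). The 3 markers of oligodendrocyte precursors all had values below 0 (median log2 fold change -0.23, sums of 11.1 to 11.6 and 8.54 to 10.4 FPKM) and 3 of 5 thalamus markers did (median -0.31, 11.9 to 19.7 and 10.7 to 13.0 FPKM), the same direction as Cacnb4 and Cacna2d2. The medians were 0.02 for astrocyte, 0.09 for oligodendrocyte and 0.29 for microglia markers. None of the markers of astrocytes (5), oligodendrocytes (5), their precursors (3), microglia (5) or thalamus (5) was called by edgeR. Together with the neuronal markers these were 28 genes, of which 7 had an unadjusted p under 0.05, against 27.8% of all genes tested. DESeq2 called 1 of the 28 higher and 4 lower, against 6.54% and 7.29% of the genes to which it gave an adjusted p. With limma-voom 0 were called, against 2.88% higher and 3.73% lower of all genes tested. No marker of any list was at 0 in all libraries, and their part in the differences of the members was not tested.

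The genes whose log2 CPM followed Cacnb4 most closely over the 6 libraries were AC154343.2 (Pearson r = 0.999), Nkain3 (r = 0.998) and Zc3h12c (r = 0.997), and 410 genes had an r above 0.95. These points share their libraries and their depth, and the libraries fall into 2 genotypes. Nkain3 and Zc3h12c were themselves called lower, at log2 fold changes of -0.46 (adjusted p = 0.040, edgeR) and -0.40 (adjusted p = 0.044, edgeR), and AC154343.2 had -0.60 (adjusted p = 0.088, edgeR). With GC offsets these 3 genes were at -0.31, -0.23 and -0.34, and none was called by edgeR.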

How the data were processed

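Hippocampal RNA of 6 females, 3 per genotype, was sequenced with 1 library per mouse. Reads had been filtered with Trimmomatic and mapped to mouse genome mm10 with STAR, and the authors deposited raw counts per gene from featureCounts 1.5.0-p1 with the exonic length of each gene, on Ensembl 95 (GRCm38). Per the file headers the counting was stranded (setting 2) with a minimum mapping quality of 3, and it took read pairs. The labels call the run paired-end but state 1 × 76 bp, so whether mates were read is unclear.

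The members and lists were chosen with earlier results of these data known. Genes were filtered with filterByExpr (minimum count 10), scaled by TMM and compared with edgeR 4.0.16 (quasi-likelihood test, 6 libraries, no covariates, Benjamini-Hochberg threshold 0.05), in R 4.3.3. The study's NOISeq test was not run. FPKM were computed here from TMM-scaled counts and the deposited lengths. Shares were tested with exact permutation tests. DESeq2 1.42.0, limma 3.58.1 (voom), another scaling, no filter, a replicate block, loess offsets (span 0.5) for GC content and length, and leaving out each mouse were the alternatives. GC content and sequences came from GENCODE M21, which held 54723 of 54838 genes. The fits were also run on simulated counts without GC or gene length trends and without a split of the mice. That run therefore does not bear on these features. The genes named are all members, the partner genes called and the most abundant of each list, Orai1 and Thy1, and the 3 genes nearest to Cacnb4. Marker genes, Cacna2d4, Gria3 and Gria4 are named outside this rule, after their values were seen.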

Additional observations from a re-analysis of the deposited data

How the results depend on the processing

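With the main settings 1 member was called higher and 2 lower. Members called higher were 0 with GC offsets, with GC offsets and the replicate block, and with gene length offsets and the block. Members called lower were 0 with GC offsets, 1 with GC offsets and the block, and 1 with gene length offsets. Without single libraries 0 to 1 were called higher and 0 to 2 lower. Over all genes, 591 were called higher and 764 lower. DESeq2's Wald test gave 1055 and 1175, GC offsets 161 and 246, and gene length offsets 372 lower. Without single libraries 11 to 466 were higher and 66 to 683 lower, with 1 mouse less per fit.

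The labels do not say whether the replicate numbers pair the mice. Deviations of same-numbered mice correlated at 0.40, -0.36 and 0.39. Their mean was 0.14, against -0.09 for mice of different numbers, and so few mice cannot settle it. With the replicate block 263 genes were called higher and 475 lower, with GC offsets and the block 148 and 314, and with gene length offsets and the block 230 and 339. The block alone changed no call of a member.

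Partner genes called higher were 2 without a filter, 4 with DESeq2's Wald test and 0 to 1 without single libraries. Partner genes called lower were 4 with DESeq2's Wald test, 0 with GC offsets, 1 with each of GC offsets and the block, gene length offsets, and gene length offsets and the block, and 0 to 2 without single libraries.

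Of the members, 3 that were never called changed sign. Cacna2d3 had 0.067 with GC offsets, 0.063 with GC offsets and the block, 0.077 with gene length offsets, 0.074 with these and the block, and -0.075 to 0.042 without single libraries. Cacng3 had -0.030 with GC offsets and -0.030 with the block added, -0.00020 with gene length offsets, -0.0029 with these and the block, and -0.070 to 0.087 without single libraries. Cacng8 had -0.22 to 0.032 without single libraries. Cacng2, which kept its sign, had -0.18 to -0.013. Shares kept their direction with counts in place of FPKM and with further family genes in the sum. Without single libraries the difference ranged from -3.52 to 0.841 points for Cacna2d1, from 2.17 to 6.06 points for Cacna2d3 and from -0.682 to 0.0590 points for Cacng2. The order of levels kept 2 of 10 ranks in CPM. The causes were not tested beyond what each setting removes. The smallest count of a member in a library was 1168.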
